A study of Hordeum vulgare with 30 samples.

Results

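Of 17173 barley genes that were measured in the roots of all 5 varieties, 78 (0.454%) stood at a level of their own in Golden Promise. A gene was counted when both of the Golden Promise group means, with and without waterlogging, were at least 2 times the highest mean of the other varieties, or at most 1/2 of the lowest. Levels are CPM, the count of a gene divided by the library total and multiplied by 1e+06, and all 10 group means had to reach 1 CPM. Of the 78 members, 36 were high in Golden Promise and 42 were low. The members were chosen by these CPM values, so their levels in Golden Promise relative to the other varieties are a description and carry no test.

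The study compared the roots of 5 barley varieties after 24 h of waterlogging with those of plants watered normally. Golden Promise stood for two-row spring barley, Infinity with Regina for two-row winter barley, and Passport with Pilastro for six-row winter barley. Seedlings were 10 days old when the water was raised to 1 cm above the soil, and each of the 3 samples per variety and treatment pooled the roots of 3 plants. Golden Promise was the only spring variety, so its variety and its growth habit cannot be told apart here.

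Waterlogged soil holds little oxygen, and roots under these conditions switch to fermentation and induce a core set of hypoxia genes, among them alcohol dehydrogenase. Levels of many other genes differ between varieties whether or not the soil is flooded, as inbred varieties carry different alleles of the genes and of their regulators. Golden Promise, a semi-dwarf malting barley obtained by mutagenesis, is the variety most often used for barley transformation and so serves as a model in barley research. Which genes stand apart in its roots, and whether waterlogging moves them, was the question put to these data.

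The 30 libraries held between 9601984 and 12349136 counts, and the 6 Golden Promise libraries between 11895171 and 12349136. HvADH1, an alcohol dehydrogenase gene that marks low oxygen, was at 19.9 to 120 CPM in the control libraries and at 205 to 1328 CPM in the waterlogged libraries, and was higher in every waterlogged library than in any control of the same variety in all 5 varieties. The 2 described genes of green tissue summed to 3.00 to 6.84 CPM in Golden Promise and to 1.89 to 9.99 CPM in the winter varieties. In whole roots, fewer cells of a type and less RNA per cell cannot be told apart. The reads of every variety were aligned to the genome of Morex, which is none of the 5, so a gene whose sequence differs between Morex and a variety can be counted low there. How much this contributed to the levels of the members was not tested.

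Identifiers are given without the shared prefix HORVU.MOREX.r3. that precedes each of them, and the number before HG is that of the chromosome. For each member, the margin is the ratio between the nearest Golden Promise mean and the nearest winter mean, with the larger on top. Among the 36 high members it ran from 2.03 to 6.18 with a median of 2.46, and 8 of them reached 3. Among the 42 low members it ran from 2.03 to 17.1 with a median of 3.02, and 21 of them reached 3. Just inside the threshold stood 2 high members at 2.03 and 2 low members at 2.03 and 2.06. Just outside it stood genes at 2.00 and 1.96 for high and at 2.00 and 1.99 for low levels, so the threshold cut through a continuous range of ratios. With each library left out in turn, 48 of the 78 members met the rule every time, and 73 met it under both other scalings of the counts.

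**Figure D1:**
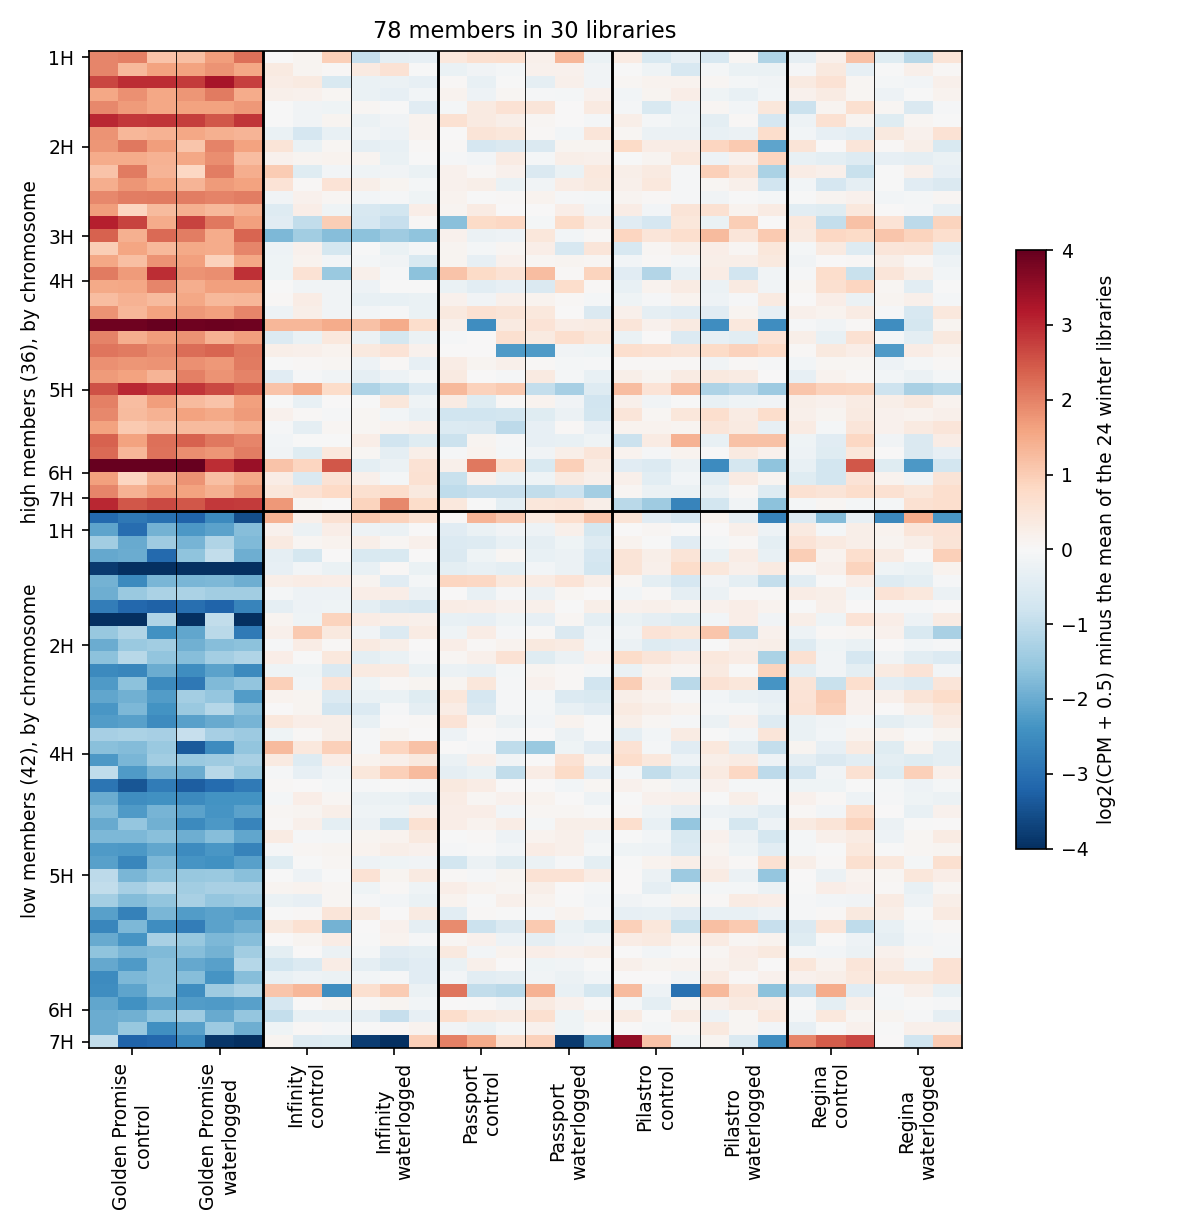
Levels of the 78 members (rows, 36 high above the thick line and 42 low under it, ordered by chromosome) in the 30 libraries (columns, 3 per group). Color gives log2(CPM + 0.5) minus the mean of the 24 winter libraries and is capped at 4 in either direction. The 6 Golden Promise columns stand apart in nearly all rows, and 65 members have no overlap between these and the 24 winter libraries.

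In 65 of the 78 members, 34 high and 31 low, all 6 Golden Promise libraries lay outside the range of the 24 winter libraries. Among all 17173 genes that could have been members, 1.08% had such a gap with Golden Promise on the high side and 0.477% on the low side. As the rule used the same values, nothing is read from this count. In the other 13 members, at least 1 winter library reached the Golden Promise range. The means of control and waterlogged Golden Promise roots lay within 1.5 times of each other in 72 members, 35 high and 37 low, and differed by at most 3.34 times in the other 6. By the log2 differences fitted with edgeR, 92.3% of the members and 85.3% of all genes tested differed by less than 0.5 in Golden Promise. The rule used these means as well, so nothing is read from the steadiness of the members.

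The high member with the largest margin was 2HG0101580, on chromosome 2H, at 6.18. Its level was 26.1, 31.6 and 31.8 CPM in control and 28.6, 40.3 and 27.4 CPM in waterlogged Golden Promise roots. The 24 winter libraries lay between 2.26 and 5.78 CPM with a median of 3.75, and no group of the winter varieties reached the Golden Promise range. Next came 5HG0437170 with a margin of 6.05. It stood at 40.7, 40.9 and 49.4 CPM in control and at 41.2, 42.1 and 41.1 CPM in waterlogged Golden Promise roots. Infinity held the highest winter levels of this gene, 4.09 to 7.40 CPM, and 4 winter libraries had no count of it at all.

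The lowest level relative to the winter varieties was that of 2HG0096650, with a margin of 17.1. Golden Promise had 2.00, 1.08 and 1.68 CPM in controls and 1.09, 1.62 and 1.33 CPM after waterlogging. The winter libraries ranged from 20.8 to 64.8 CPM with a median of 32.7. Pilastro held the highest winter means of this gene, 49.7 CPM in controls, and Passport the lowest, 27.2 CPM in controls, which still left the 2 sides far apart. The low member 5HG0447690 had a margin of 8.35 and varied little elsewhere. It was at 3.76, 2.50 and 4.12 CPM in control and at 2.76, 3.24 and 3.99 CPM in waterlogged Golden Promise roots, against 27.5 to 41.4 CPM in the winter libraries.

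Descriptions were at hand for 4 of the 78 members, compared with 3238 of the 17173 eligible genes. The described low members were a dirigent protein, an F-box protein and an ABC transporter, and the described high member was a FAR1-related protein. Dirigent proteins guide the coupling of phenolic units in lignan and lignin formation, F-box proteins choose the targets of ubiquitin ligases, B-family ABC transporters include auxin carriers, and FAR1-related proteins descend from transposases and act in light signaling in Arabidopsis. Of 23 hypoxia and other genes that the paper names, 15 were eligible and 0 were members. Of 28 published candidates in loci for waterlogging tolerance, 17 were eligible and 0 were members. At the overall share of 0.454%, lists of this length would hold less than 1 member, so nothing is read from either 0. Of the described classes counted, 1 member fell among 157 eligible genes for ubiquitin and F-box functions and 1 among 271 eligible transporters. The described disease resistance genes (33 eligible), protein kinases (210), transcription factors (150) and redox enzymes (335) held 0 members. As 74 members had no description, these counts say little about function.

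The FAR1-RELATED SEQUENCE 3 gene, 1HG0015190, was a high member with a margin of 2.46. Control roots of Golden Promise had 8.35, 8.76 and 4.54 CPM and waterlogged roots 4.76, 6.88 and 9.98 CPM. The winter libraries spread from 0.493 to 5.21 CPM, so single libraries of Passport and Regina reached the lowest Golden Promise libraries, and its margin fell to 1.96 with 1 Passport waterlogged library left out. The dirigent gene, 1HG0006090, was low, at 2.42, 3.00 and 2.69 CPM in controls and 2.25, 3.89 and 1.66 CPM after waterlogging. Its winter libraries ran from 3.53 to 71.3 CPM with a median of 30.3. Overlap came from single waterlogged libraries, as Pilastro had 27.5, 19.1 and 3.53 CPM and Regina 3.76, 71.3 and 4.60 CPM. Without the Regina library at 71.3 CPM, its margin of 5.37 became 1.55, so its place among the members rested on that library.

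The F-box gene, 2HG0190750, was low without overlap, with a margin of 2.52. Golden Promise stood at 2.09, 3.17 and 3.36 CPM in controls and at 2.17, 2.59 and 2.75 CPM after waterlogging. The winter libraries lay between 6.55 and 12.9 CPM, with the lowest mean in Pilastro controls. The ABC transporter B family-like gene, 2HG0096570, was also low without overlap, with a margin of 2.11. Controls of Golden Promise had 20.3, 21.4 and 9.58 CPM and waterlogged roots 27.8, 43.3 and 21.8 CPM, while the winter libraries ran from 52.3 to 171 CPM. Its ratio to the nearest winter mean was 4.00 in controls and 2.11 after waterlogging, but the difference of responses did not pass the test given further on. Its margin went down to 1.80 with 1 Infinity waterlogged library left out. Of the 4 described members, only the F-box gene met the rule with each library left out.

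**Figure D2:**
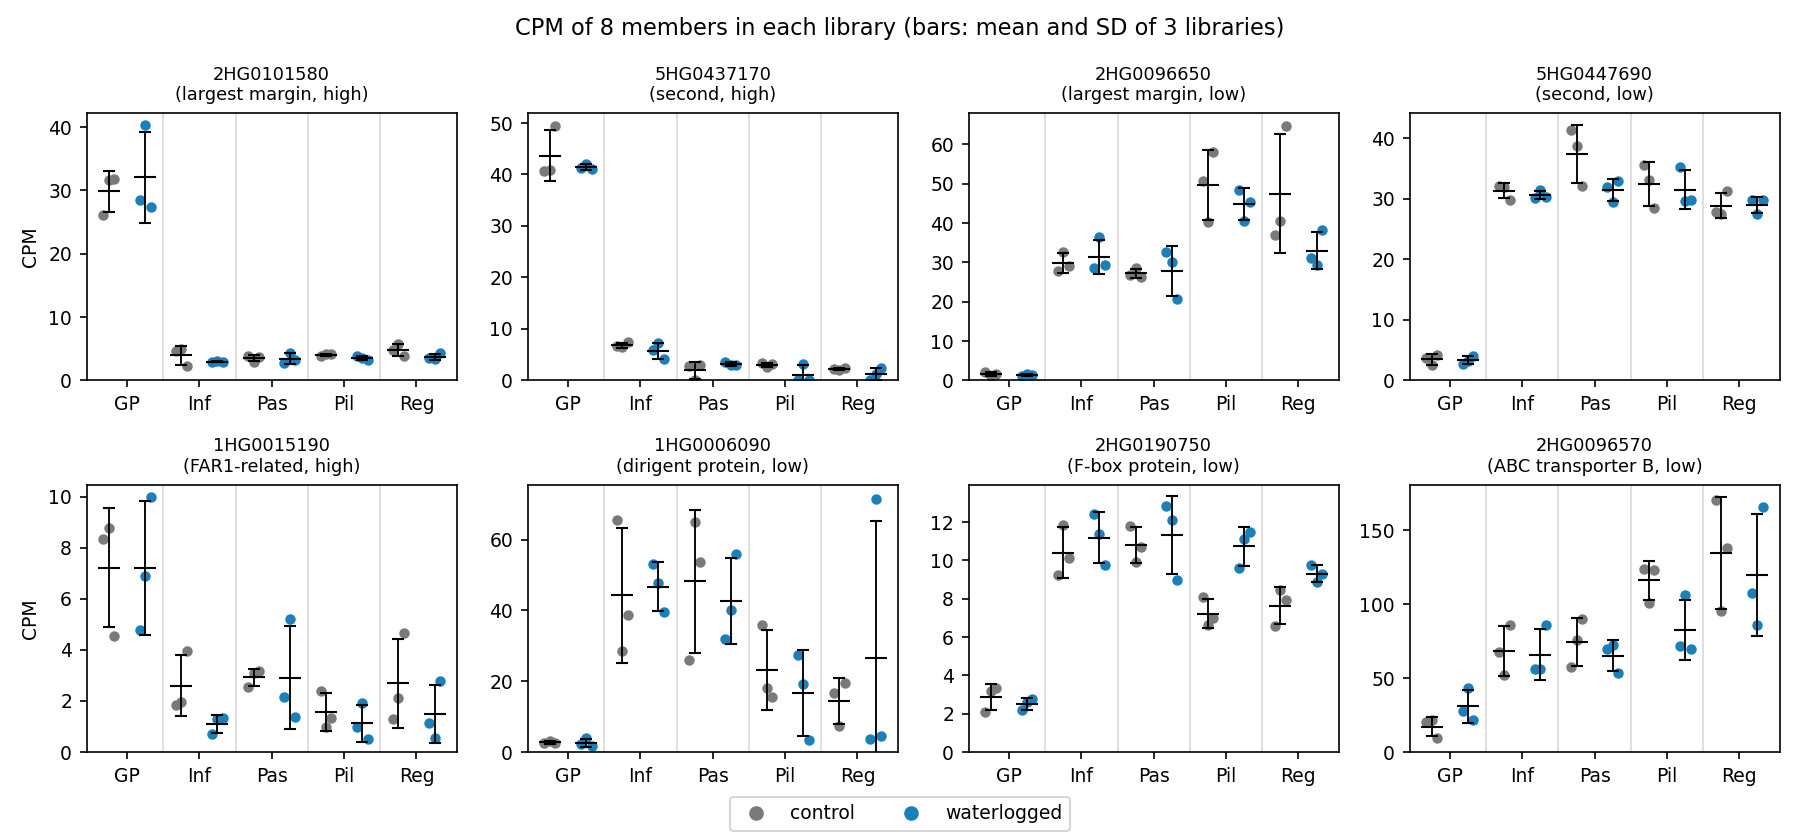
CPM (vertical axes, linear and starting at 0) of the 4 members with the largest margins and of the 4 described members in each library, with varieties abbreviated by their first letters (GP is Golden Promise). Points are libraries, gray for control and blue for waterlogged, with the mean and SD of 3. The upper 4 genes show wide gaps, such as 1.08 to 2.00 CPM against 20.8 to 64.8 CPM in 2HG0096650, whereas 1HG0015190 and 1HG0006090 overlap.

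Several further members are given by identifier because of their values, which were seen before they were chosen. The high member 6HG0540540 had 495, 250 and 293 CPM in control and 294, 124 and 175 CPM in waterlogged Golden Promise roots. Its winter libraries ran from 2.30 to 89.3 CPM, and 3 of them, 1 control each of Infinity, Passport and Regina, stood far above the rest at 68.3 to 89.3 CPM. Golden Promise did not overlap with the winter libraries, but libraries of 1 group could differ widely, as in Regina controls with 12.4, 9.05 and 89.3 CPM. The low member 7HG0748760 was the most variable. It had 12.3, 2.25 and 2.35 CPM in control and 3.84, 1.21 and 0 CPM in waterlogged Golden Promise roots, and 0.918 to 298 CPM in winter roots, so the ranges overlapped widely.

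The margin of 7HG0748760, 2.81, became 0.200 without the Infinity waterlogged library at 48.5 CPM and 0.595 without the Passport waterlogged library at 47.7 CPM, that is, a winter mean then lay under a Golden Promise mean. It became 6.86 without the Golden Promise control library at 12.3 CPM. Replicates of the members were somewhat less alike than those of other genes, with a median coefficient of variation of 17.3% compared with 13.9% over the eligible genes. Members and eligible genes were not matched for level here, so this difference may reflect low counts. In 4 members (5.13%), 2 high and 2 low, a library with no count stood beside a library of the same group with at least 20 counts, compared with 1.35% of the eligible genes. The sources used here do not say how the authors' counting treated reads that fit more than 1 gene, or strand, so values of near-identical copies and of overlapping genes are uncertain.

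The rule was also applied to each winter variety in turn. It chose 44 genes in Infinity (22 high and 22 low), 38 in Passport (16 and 22), 13 in Pilastro (3 and 10) and 21 in Regina (5 and 16), compared with the 78 of Golden Promise. The largest margin on the low side was 17.1 in Golden Promise, 15.2 in Infinity and 9.48 in Regina, and that on the high side was 6.66 in Passport and 6.18 in Golden Promise. Each such count depends on how close the other 4 varieties are to each other. The winter variety nearest to Golden Promise was Infinity in 9 high and 10 low members, Passport in 8 and 13, Pilastro in 11 and 11, and Regina in 8 and 8, so no winter variety was the nearest for most members.

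Genes chosen for a Golden Promise level under one treatment can be tested against the winter mean under the other, as control and waterlogged roots were different plants and libraries. Such a call is against the mean of the winter varieties, not the nearest of them, so it does not by itself show a level of its own. Libraries of the same number deviated together across treatments in Passport and Regina, and in some pairs of Golden Promise, Infinity and Pilastro, so choice and test were not fully independent. When the rule was applied to the 5 control means alone, it chose 66 high and 109 low genes. In the waterlogged libraries, 61 of the 66 (92.4%) were called higher in Golden Promise than the mean of the winter varieties at an adjusted p under 0.05 (quasi-likelihood test of edgeR, adjusted after Benjamini and Hochberg), compared with 7.52% of all 20576 genes tested. Of the 109 low genes, 83 (76.1%) were called lower, compared with 6.68% of all genes. The log2 differences in the waterlogged libraries had medians of 1.61 and -1.83, and 65 of 66 and 108 of 109 genes had the direction of the controls.

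In reverse, the 5 waterlogged means alone chose 92 high and 202 low genes. Of these, 71 (77.2%) and 102 (50.5%) were called in the control libraries, compared with 8.88% and 5.56% of all genes, and 90 of 92 and 197 of 202 had the same direction. The median log2 differences in controls were 1.46 and -1.49. The rule of 2 times itself was met under both treatments by 45 high and 68 low genes. These were 68.2% and 62.4% of the genes chosen in controls, and 48.9% and 33.7% of those chosen after waterlogging. The 78 members are among these 45 and 68 genes. They are fewer because each of their Golden Promise means was set against all 8 winter means.

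The waterlogging response of the members was tested within each variety. The rule set both Golden Promise means against the winter means of both treatments, so a gene with a strong response was less likely to become a member, and the counts of responding members are not independent of the choice. In Golden Promise itself, edgeR called 0 of the 78, compared with 0.442% of all genes tested, a share that amounts to less than 1 of 78 genes. DESeq2 also called 0, and 4 members had an unadjusted p under 0.05. In Infinity 1 member was called (1.28% of the members) and 3.92% of all genes were. Passport had 1 call among the members, near the 1.08% of all genes, Pilastro had 2 (2.56%, with 3.82% of all genes) and Regina had 1 (with 4.04% of all genes). Without adjustment, 5.13% to 8.97% of the members had a p under 0.05 in the 5 varieties, whereas the share of all genes was 6.49% in Golden Promise and 13.6% to 20.1% in the winter varieties.

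The sizes of the responses did not all lie on one side of those of other genes. The median size on the log2 scale was 0.14 for the members against 0.15 for all genes in Golden Promise roots. It was smaller for the members in Infinity, 0.18 compared with 0.21, and in Pilastro, 0.23 compared with 0.24. It was 0.20 for both in Passport, and larger for the members in Regina, 0.21 compared with 0.19. For the difference between the response of Golden Promise and the mean winter response, the median size was 0.22 for the members and 0.18 for all genes, and 8.97% of the members and 4.92% of all genes had an unadjusted p under 0.05. The rule used the group means behind all of these responses. The sizes and shares of the members are therefore not independent of the choice, and nothing is read from them.

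All but 1 of the calls for waterlogging came from a single gene, 5HG0510870, a high member with no description at hand. It had 52.2, 72.7 and 62.9 CPM in control and 64.0, 55.9 and 46.8 CPM in waterlogged Golden Promise roots. Controls of the winter varieties lay between 12.7 and 25.3 CPM in all 12 libraries. Their waterlogged libraries lay between 2.79 and 5.80 CPM, under every control. The gene therefore kept its level in Golden Promise libraries of both treatments within one range and was lower after waterlogging in all 4 winter varieties, without overlap in any of them. Calls for a lower level after waterlogging were made for 0.923% of all genes of Infinity roots, and in the same order of varieties for 0.355% (Passport), 1.36% (Pilastro) and 1.49% (Regina).

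In the winter varieties, 5HG0510870 fell by 2.12 on the log2 scale in Infinity (SE 0.254, adjusted p = 0.000124), by 2.1 in Passport (SE 0.251, adjusted p = 0.000485), by 2.43 in Pilastro (SE 0.258, adjusted p = 5.5e-05) and by 2.14 in Regina (SE 0.257, adjusted p = 4.9e-05). In Golden Promise the log2 difference was -0.18 (SE 0.227, adjusted p = 1). The response of Golden Promise minus the mean response of the 4 winter varieties was 2.01 on the log2 scale (SE 0.264, adjusted p = 0.00216 by edgeR's quasi-likelihood test). It was 1 of only 2 genes called in this test among all 20576 (0.00972%). As a result, the ratio of Golden Promise to the highest winter mean was 3.19 in controls and 12.8 after waterlogging.

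The call for the difference of responses was made in each of the 30 fits with 1 library left out and in the 4 other settings, with log2 differences between 1.90 and 2.13 and adjusted p between 4.38e-11 and 0.0227. With each variety fitted alone, the adjusted p of the response of 5HG0510870 was 0.0522 in Infinity and 0.0767 in Pilastro and 0.0171 in Passport and 0.0116 in Regina. The gene was 1 of 3 high members that stood close together on chromosome 5H, in places 2006, 2008 and 2014 of 2769 eligible genes in identifier order. The other members of this group did not share its response. 5HG0510840 was at 36.1 to 57.9 CPM in Golden Promise and at 10.1 to 18.5 CPM in the winter libraries, with log2 responses between -0.10 and 0.36 and adjusted p from 0.650 to 0.936. 5HG0510980 was at 5.34 to 10.2 CPM in Golden Promise and at 1.06 to 3.12 CPM in the winter libraries, with log2 responses between -0.35 and 0.32 and adjusted p from 0.602 to 0.972.

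**Figure D3:**
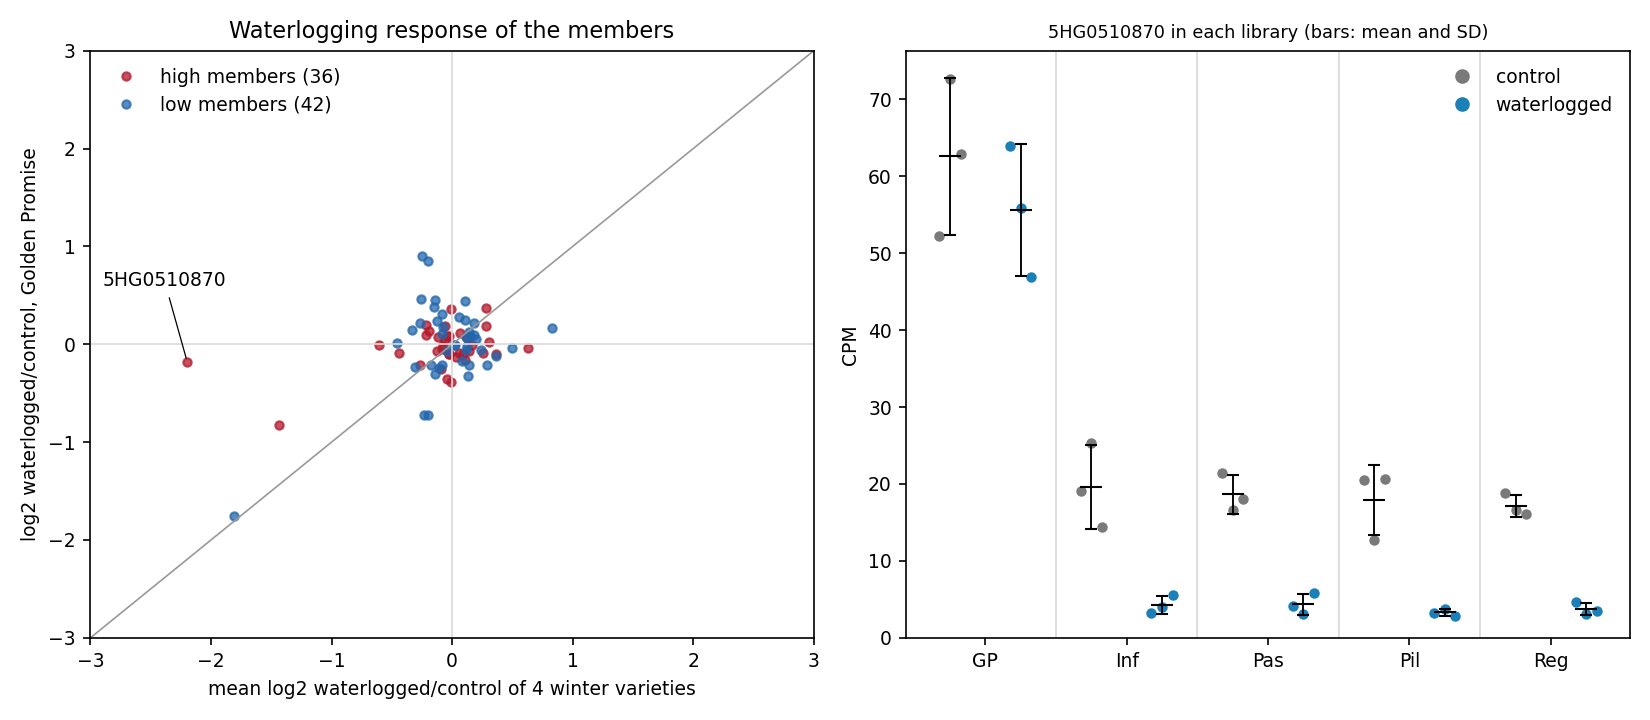
Left, log2 difference between waterlogged and control roots of Golden Promise (vertical) against the mean of the 4 winter varieties (horizontal) for 36 high and 42 low members, with the line of equal response. Most members lie near 0 on both axes and 5HG0510870 lies far left of the line. Right, its CPM in each library with the mean and SD of 3, at 46.8 to 72.7 in Golden Promise, 12.7 to 25.3 in winter controls and 2.79 to 5.80 in waterlogged winter roots.

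The other call was that of the F-box gene 2HG0190750 in Pilastro. Its controls there had 8.09, 6.61 and 7.00 CPM and its waterlogged roots 9.59, 11.1 and 11.5 CPM, without overlap. The log2 difference was 0.58 (SE 0.161, adjusted p = 0.0441 by edgeR), and adjusted p ran from 0.0109 to 0.159 over the alternatives. The call was made in 20 of the 30 fits with a library left out and in 3 of 5 other settings. Its difference of responses, Golden Promise minus the winter mean, was -0.50 (adjusted p = 0.970) and did not pass. For the ABC transporter gene 2HG0096570 this difference was 1.05 (SE 0.351, adjusted p = 0.950), and for 6HG0540540 it was 0.61 (SE 0.761, adjusted p = 1).

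The members were also compared among the 4 winter varieties, in the fit of all 30 libraries. The rule used these winter means, as Golden Promise had to stand beyond the most extreme of them. A gene with widely spread winter means was thus less likely to become a member. The shares of members below are therefore not independent of the choice, and nothing is read from them. The 8 winter means lay within 2 times of each other in 55 members (70.5%), compared with 73.4% of the eligible genes. An edgeR F-test among the 4 varieties called 13 members in controls, where 18.2% of all genes were called, and 7 after waterlogging, where 15% of all genes were. These were 16.7% and 8.97% of the members. In a fit of the 24 winter libraries alone, 15 members (19.2%, with 16.5% of all genes) and 8 members (10.3%, with 14.1%) were called. With the replicate number as a block, 16 members were called in controls (20.5%, with 22.9% of all genes) and 17 after waterlogging (21.8%, with 18.5%). DESeq2 called 18 (23.1%, with 20.6% of all genes) and 13 (16.7%, with 16.9%). Whether the members' share lay above or below that of all genes thus changed with the fit.

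Both treatments called 5 members, all but 1 of them high. 3HG0248000, the only member on chromosome 3H, had a margin of 2.06, which was 1.95 with TMM-scaled totals, 1.96 with DESeq2 size factors and as low as 1.78 with a library left out, so that it met the rule only narrowly. It was at 82.3, 42.5 and 77.3 CPM in control and at 66.1, 44.8 and 81.0 CPM in waterlogged Golden Promise roots. Infinity had 4.12 to 5.62 CPM, Passport 13.2 to 21.9 CPM, Pilastro 22.0 to 38.2 CPM and Regina 20.1 to 34.1 CPM. Infinity thus stood lowest without overlap, and the range of Regina overlapped with those of Passport and Pilastro. Adjusted p among the winter varieties was 1.79e-06 in controls and 6.85e-07 after waterlogging. 7HG0640700 had 31.2 to 46.2 CPM in Golden Promise and its highest winter levels in Infinity, 5.24 to 21.0 CPM, and its lowest in Pilastro, 0.412 to 4.72 CPM (adjusted p = 0.00443 in controls and 0.0171 after waterlogging). In both genes the winter varieties were spread over several levels, and Golden Promise stood above the highest of them.

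The members were unevenly spread over the chromosomes, which the rule did not use. Chromosomes 2H and 5H held 28 each, so that 56 members (71.8%) were on chromosomes that hold 32.8% of the eligible genes. On 2H they were 0.976% of the eligible genes (13 high, 15 low) and on 5H 1.01% (11 high, 17 low), while 4H had 8 (0.377%), 6H 6 (0.302%), 1H 4 (0.177%), 7H 3 (0.12%) and 3H 1 (0.0377%). At a threshold of 1.5 times, which 213 genes met, 5H and 2H had the highest shares, 2.24% and 1.95%, and 3H the lowest, 0.528%. The 213 genes include all 78 members, so this ranking is not independent of the first.

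The same shares were computed for the other varieties. Genes at an Infinity level took up 0.418% of the eligible genes on 2H and 0.325% on 5H, but also 0.319% on 7H. Passport had its highest share on 1H, 0.354%, Pilastro on 2H, 0.174%, and Regina on 1H, 0.221%. The counts behind these shares were 12 or fewer genes per chromosome. Among the 17095 eligible genes that were not members, 6.53% were called between Golden Promise and the winter mean in both treatments, with 8.21% on 5H and 7.74% on 2H and the lowest shares on 3H (4.64%) and 4H (4.78%).

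**Figure D4:**
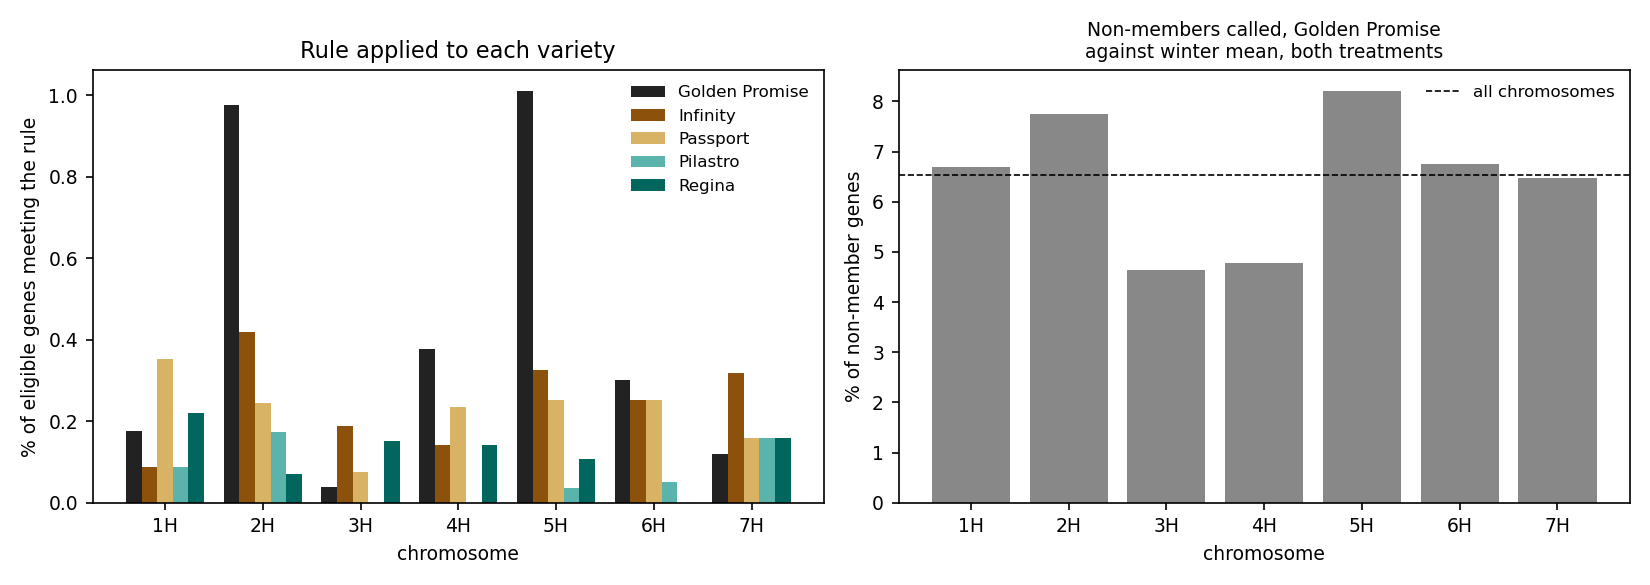
Left, percent of the eligible genes of each chromosome that met the rule for each of the 5 varieties. Golden Promise reaches 1.01% on 5H and 0.976% on 2H, and the other varieties at most 0.418%. Right, percent of the genes that are not members called by edgeR between Golden Promise and the mean of the winter varieties in both treatments, between 4.64% on 3H and 8.21% on 5H, with the dashed line at 6.53% for all chromosomes.

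Members also lay close to each other. Identifiers are numbered along each chromosome, and the order of the eligible genes by identifier was used as their position. Of the 78 members, 15 (19.2%) had another member as direct neighbor, compared with 0.885% of all eligible genes, and 35 (44.9%) had one within 10 genes, compared with 7.06%. When all genes of the table were counted as possible neighbors, the shares were 14.1% and 37.2%, compared with 0.43% and 3.6%. A high share of direct neighbors was seen for the other varieties too, so it was not particular to Golden Promise. It was 7 of 44 genes for Infinity (15.9%), 8 of 38 for Passport (21.1%), 5 of 13 for Pilastro (38.5%) and 4 of 21 for Regina (19.0%). Among all eligible genes these shares were 0.501%, 0.443%, 0.146% and 0.239%. Within 10 genes the shares were 38.6%, 26.3%, 38.5% and 33.3%, compared with 4.12%, 3.9%, 1.18% and 2.04%. All were under the 44.9% of Golden Promise, whose background was also higher.

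Neighbors did not always go the same way. Of 8 pairs of direct neighbors, 3 were both low, 2 were both high and 3 were opposite. On chromosome 2H, 3 members stood in places 140 to 142 of 2869. The first of them, 2HG0101560, was low, with 0, 0 and 5.55 CPM in control and 0, 6.56 and 0 CPM in waterlogged Golden Promise roots against 9.47 to 25.1 CPM in the winter libraries. Its Golden Promise libraries thus either had no count or stood just under the winter range. Next to it were the high member with the largest margin, 2HG0101580, and 2HG0101600, which was at 46.6 to 69.2 CPM in Golden Promise and 12.8 to 20.3 CPM in the winter libraries. By the rule, a low gene and a pair of high genes stood side by side. The 2 high genes met it with each library left out in turn, but 2HG0101560 did not.

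On 5H, the neighbors 5HG0486880 and 5HG0486890 were both low. The first was at 4.16 to 5.63 CPM in Golden Promise and 11.4 to 25.0 CPM in the winter libraries, and the second at 5.16 to 8.07 CPM and 24.4 to 48.3 CPM. Neither gene overlapped between the 2 sides, and in both the winter mean nearest to Golden Promise was that of Pilastro controls.

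In windows of 100 eligible genes, 135 of 176 held no member, and 10 held 3 or more, which together had 37 of the 78. All 10 were on 2H, 4H or 5H. On 2H, 9 members were in the first 5% of the order, 9 in the last 20% and 0 between 30% and 70%. The first 5% held the largest margin of either direction, 2HG0096650 and 2HG0101580, and the ABC transporter gene. On 5H, 12 members, 8 of them low, were in the last 20%, and 7 were between 30% and 70%. Genes 2501 to 2600 of 5H held 5 members, all of them low. On 4H, 6 of the 8 members were in the last 5%. Clusters of this kind are described here by order alone, without distances in bases.

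**Figure D5:**
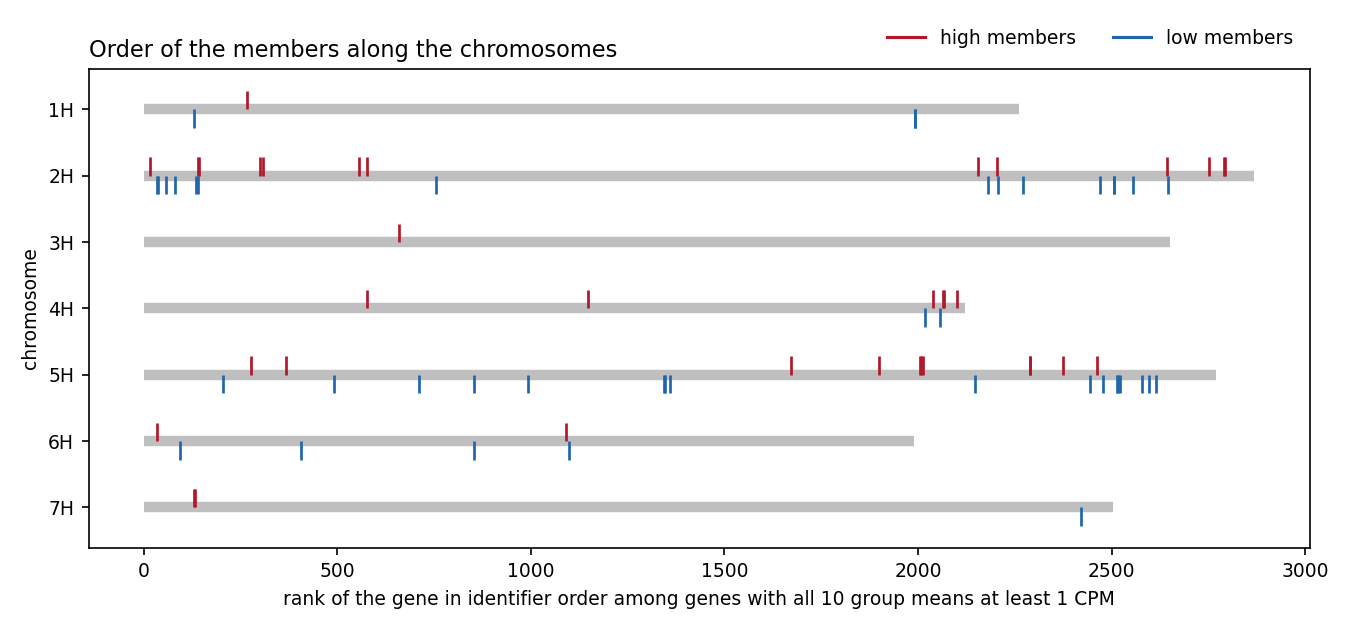
Place of the members along chromosomes 1H to 7H, as rank in identifier order among the eligible genes of the chromosome (gray bars end at the last gene). Red ticks above a bar are high members and blue ticks under it low members. Groups are seen at the start and end of 2H and toward the ends of 4H and 5H, and the middle of 2H is empty.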

How the data were processed

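The deposited values are counts per gene, whole numbers that the authors obtained with StringTie (2.1.7) from single-end reads aligned with Bowtie2 (2.4.5) to the Morex version 3 genome, with SAMtools (1.15.1), and did not normalize. No per-sample column was left unused (0). Libraries were grouped by the variety, treatment and replicate number of their labels. The paper describes the 3 samples of a group as biological replicates from independent runs of the experiment.

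CPM, group means and the rule used raw library totals. Tests used R 4.3.3 and edgeR 4.0.16 (TMM, filterByExpr, 20576 genes, quasi-likelihood F-test, 1 coefficient per group, all 30 libraries), with Benjamini-Hochberg adjusted p under 0.05 called. DESeq2 1.42.0 was an alternative. Figures used python 3.11.15 and matplotlib 3.10.9. The steps were tested on simulated data.

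The members, the gene lists and the tests were chosen with earlier results of these data known. Named are described members, the 2 high and 2 low members with the largest margin, and the genes at the threshold by value; further identifiers were chosen after their values were seen. Descriptions come from the part of the paper's tables at hand. The reference table at hand paired no identifier of the counts, so no symbols, sequences or coordinates are given.

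Control and waterlogged libraries of the same number deviated together in Passport (correlations 0.174, 0.268 and 0.146) and Regina (0.108, 0.164 and 0.304), where numbers were taken to pair samples, and not in all 3 pairs of Golden Promise, Infinity or Pilastro (lowest -0.0415, -0.0861 and -0.0299). The highest correlations in Golden Promise, Infinity and Pilastro were 0.234, 0.185 and 0.45. The pairing comes from these correlations only. Alternatives were other scalings, filters, thresholds, tools, a replicate block, each variety alone, the winter libraries alone and leaving out each library. The block in the winter comparison and in the test across treatments, and neighbor shares at 1.5-fold, were added after the data were seen. The authors' fold changes were not used.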

Additional observations from a re-analysis of the deposited data

Results flagged for a closer look

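The waterlogging response of HORVU.MOREX.r3.5HG0510870 differed between Golden Promise and the winter varieties in a test of the difference itself (log2 difference 2.01, SE 0.264, adjusted p = 0.00216, edgeR). Waterlogged libraries were lower than controls in all 4 winter varieties, without overlap, and the Golden Promise ranges overlapped (46.8 to 64.0 CPM waterlogged, 52.2 to 72.7 CPM control). It was chosen as a member for its high level in Golden Promise under both treatments. A strong fall in waterlogged Golden Promise roots would have kept it out, so its steady level there is not independent of the choice.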

How the results depend on the processing

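The rule chose 29 members at 3-fold, 213 at 1.5-fold, 26 with a minimum of 5 CPM and 235 with no minimum. With TMM-scaled totals or DESeq2 size factors it chose 79, of which 73 were among the 78, and with group medians 78, of which 62 were. With a library left out it chose 73 to 82. At 3-fold, 27.6% of members had another within 10 genes, compared with 2.87% of the eligible genes. The margin of 7HG0748760 was 0.566 with group medians and 0.200 to 6.86 with a library left out. With each variety fitted alone, 0 members were called for waterlogging in Infinity and 0 in Pilastro. Without a filter on low counts, 1 was called in Pilastro, and with a library left out 1 to 2 in Pilastro and 1 to 2 in Regina, where DESeq2 called 2. Among the winter varieties after waterlogging, DESeq2 called 13 members, and fits with a library left out 6 to 11, the highest without the Golden Promise control library of replicate 2. With the replicate block, a fit with pairing by number within each variety that was added for the winter comparison after the data were seen, 17 were called there and 16 in controls. The block changed no call of a member for waterlogging or for the difference of responses. Genes chosen in controls and called after waterlogging were 68.6% to 89.0% with a library left out, and in reverse 45.2% to 62.6%. The causes were not tested. Depth limits members near 1 CPM, which have about 10 to 12 counts per library.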
